A study of Mus musculus with 8 samples.

Results

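The 9 genes described here, Afp, Ttr, Gata4, Gata6, Sox7, Sox17, Foxa2, Foxa1 and Dab2, are known markers of the endoderm and of the yolk sac. They were chosen by symbol with earlier results of these data in view, which were the high values of Afp and Gata4 on a single primary NFIA array and the differences of endoderm genes between NFIA and control cells of primary neurospheres. They are 9 of 15452 genes whose probe was well above background on at least 1 of 8 arrays. Their levels were measured in neural stem and progenitor cells that had been made from mouse embryonic stem cells by way of embryoid bodies, which are floating aggregates of differentiating stem cells, and grown as neurospheres. Cells that overexpress NFIA, a transcription factor known for its role at the start of astrocyte formation, were grown in the same spheres as control cells and separated from them by flow sorting before RNA was taken. Each of 4 groups has 2 arrays. PN_control and PN_NFIA are the control and NFIA-overexpressing cells of primary neurospheres at passage 0 on day 6, and SN_control and SN_NFIA are those of secondary neurospheres at passage 1 on day 12. The labels give neither the promoter that drives NFIA nor the number of clones. They also do not say that the 2 arrays of a group come from separate cultures, so p-values measure the spread between these arrays, which may be technical.

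In the mouse embryo the first endoderm arises from the inner cell mass under GATA6 and GATA4, and forms the visceral endoderm, which coats the embryo and later the yolk sac, and the parietal endoderm, which lines the outer wall of the sac. The visceral layer secretes serum proteins such as alpha-fetoprotein and transthyretin and takes up nutrients through megalin and cubilin with the adaptor DAB2. Definitive endoderm, the source of gut and liver, forms later at gastrulation and uses SOX17, FOXA2 and FOXA1. Several of the 9 genes have known sites outside the endoderm as well. FOXA2 and FOXA1 act in the floor plate and ventral midbrain, transthyretin is made by the choroid plexus, and SOX7 and SOX17 act in endothelium.

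Promoter windows of 250 bases before the annotated start are held for 4 of the 9 genes in the RefSeq table used (build GRCm38.p6), and they are printed because Afp, the gene with the widest gap on 1 array, is a textbook target of liver and yolk sac factors and Foxa1 and Foxa2 encode such factors. Capitals mark letters that match a searched motif on either strand, and the strand given is that of the gene. The windows lie at chr5:90490464-90490713 on the plus strand for Afp, chr15:6299539-6299788 on the plus strand for Dab2, chr12:57546112-57546361 on the minus strand for Foxa1 and chr2:148046970-148047219 on the minus strand for Foxa2. Promoters of Gata4, Gata6, Sox7, Sox17 and Ttr are named only.
Afp: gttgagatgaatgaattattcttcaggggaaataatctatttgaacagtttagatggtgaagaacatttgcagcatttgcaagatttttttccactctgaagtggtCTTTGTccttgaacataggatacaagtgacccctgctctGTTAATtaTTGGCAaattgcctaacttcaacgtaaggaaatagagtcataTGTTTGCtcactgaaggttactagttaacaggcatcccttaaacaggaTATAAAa
Dab2: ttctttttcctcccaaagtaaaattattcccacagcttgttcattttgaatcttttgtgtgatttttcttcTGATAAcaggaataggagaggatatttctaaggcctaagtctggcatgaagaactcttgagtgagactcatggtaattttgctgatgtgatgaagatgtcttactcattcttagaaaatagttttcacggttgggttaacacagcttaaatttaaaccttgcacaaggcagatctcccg
Foxa1: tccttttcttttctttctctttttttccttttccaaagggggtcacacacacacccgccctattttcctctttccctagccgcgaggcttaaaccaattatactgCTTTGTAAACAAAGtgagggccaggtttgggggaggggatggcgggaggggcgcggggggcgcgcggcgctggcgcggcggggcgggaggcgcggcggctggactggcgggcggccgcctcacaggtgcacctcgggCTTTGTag
Foxa2: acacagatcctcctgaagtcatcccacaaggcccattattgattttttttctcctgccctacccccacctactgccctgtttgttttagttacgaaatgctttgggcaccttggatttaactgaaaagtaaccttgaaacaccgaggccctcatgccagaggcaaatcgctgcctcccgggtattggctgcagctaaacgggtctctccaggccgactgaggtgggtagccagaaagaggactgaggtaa

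The Afp window is AT-rich, with 36% GC against a median of 52.4% over all 32851 windows of this length, and holds matches to 5 of the 6 searched motifs. Counted in bases before the start, they are ACAAAG, a SOX motif, on the reverse strand at 144 to 139, TTGGCA, an NFI motif, at 97 to 92, with GTTAAT, an HNF1 motif, a few bases upstream of it, TGTTTGC, a forkhead motif, at 55 to 49, and TATAAA, the TATA motif, at 7 to 2. Over all windows, 25.2% hold ACAAAG or ACAATG, 6.43% GTTAAT, 12.3% TTGGCA, 7.29% TGTTTAC or TGTTTGC, and 12.4% TATAAA. The Dab2 window, with 36.8% GC, holds TGATAA at 179 to 174, and 16.6% of all windows hold TGATAA or AGATAA, the GATA motifs. In the Foxa1 window, with 62% GC, the reverse complement of TGTTTAC at 141 to 135 overlaps a pair of ACAAAG matches at 145 to 140 and 137 to 132, and a further match to ACAAAG lies at 8 to 3. The Foxa2 window, with 50.8% GC, holds none of these letters. A match is a run of letters and was not tested for binding.

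Several facts about the arrays bear on all values below. For 7 of the 8 samples the deposited value table and the attached scanner file hold different arrays, and values follow the table. The titles, from which the groups are taken, also conflict with the source names, which give the NFIA line for all 4 arrays titled control and WT for PN_NFIA 1 and SN_NFIA 2. By slide position, primary and secondary arrays lie in different rows and control and NFIA arrays in different columns, so position and group cannot be told apart. The 10 neural progenitor markers, among them Sox1, Nes and Pax6, were well above background on all 8 arrays. The brighter Nfia probe stood at -1.30 and -0.30 in PN_control, -0.24 and 0.93 in PN_NFIA, 1.00 and 0.61 in SN_control and 1.70 and 1.62 in SN_NFIA, with PN_NFIA 1 close to PN_control 2. A second Nfia probe stood at -3.88 and -2.99 in PN_control, -1.88 and -0.88 in PN_NFIA, -1.68 and -3.19 in SN_control and -0.08 and -1.11 in SN_NFIA. By either probe both NFIA arrays of a passage, PN_NFIA 1 included, lay above its control arrays. All levels here are log2 of the processed signal over the 75th percentile of its array, and a level of 0 is that percentile. A lower number is a dimmer probe, and levels of different genes are not compared, since probes differ in brightness.

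Afp, which encodes the main serum protein of yolk sac and fetal liver, stood at -1.29 on PN_NFIA 1 and at -4.62 on PN_NFIA 2. It stood at -6.56 and -6.54 in PN_control, -5.40 and -5.55 in SN_control and -6.22 and -6.01 in SN_NFIA. PN_NFIA 1 was the sole array on which the probe was well above background, so the other 7 values have no order. The signal of PN_NFIA 1 was at least 8.43-fold that of the other array of its own group and at least 3.96-fold that of each other array, where the lowest signal called well above background on the dimmer array sets the bound.

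Ttr, the transthyretin gene, encodes the carrier of thyroid hormone and retinol-binding protein. Its levels were -0.37 on PN_NFIA 1, -1.63 on PN_NFIA 2, -4.16 and -3.41 in PN_control, -3.35 and -3.05 in SN_control and -3.33 and -3.65 in SN_NFIA. Both PN_NFIA arrays lay above the 6 others, and PN_NFIA 1 was 2.39-fold PN_NFIA 2. The probe was well above background on all arrays except SN_control 1. The order of the group means was PN_NFIA (-1.0 ± 0.89, SD, n = 2), SN_control (-3.20 ± 0.21), SN_NFIA (-3.49 ± 0.22) and PN_control (-3.78 ± 0.53), and in the last 3 of these each group overlapped its neighbour.

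The zinc finger factors Gata4 and Gata6 drive formation of the primitive endoderm. Gata4 stood at -1.46 on PN_NFIA 1 and -4.69 on PN_NFIA 2, with -6.35 and -6.41 in PN_control, -5.13 and -5.70 in SN_control and -5.58 and -5.79 in SN_NFIA. Gata6 stood at -2.19 on PN_NFIA 1 and -4.30 on PN_NFIA 2, with -4.63 and -5.78 in PN_control, -4.83 and -5.72 in SN_control and -3.95 and -5.44 in SN_NFIA. Both genes were well above background on PN_NFIA 1 and on no other array. PN_NFIA 1 was at least 7.48-fold PN_NFIA 2 for Gata4 and at least 4.30-fold for Gata6. Against each of the other 7 arrays the bounds were 3.51-fold and 2.11-fold.

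Sox17, a factor of primitive and definitive endoderm and of arterial endothelium, stood at -1.08 on PN_NFIA 1 and -3.80 on PN_NFIA 2, which is a 6.60-fold difference within the group. The other arrays read -3.91 and -4.05 in PN_control, -4.33 and -2.22 in SN_control and -6.25 and -6.03 in SN_NFIA. PN_NFIA 1 was 2.20-fold the next highest array, SN_control 2. Neither SN_NFIA array nor SN_control 1 was well above background. A second Sox17 probe, well above background on PN_control 1, PN_NFIA 1 and SN_control 2, gave -0.52 on PN_NFIA 1 and -4.35 on PN_NFIA 2, so the same array was highest by both probes.

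Sox7, the related SOX factor of primitive and parietal endoderm and of early endothelium, had another pattern. Its levels were -3.80 and -4.12 in PN_NFIA and -3.06 and -2.22 in SN_NFIA, against -6.19 and -6.35 in PN_control and -5.30 and -5.89 in SN_control. The probe was well above background on all 4 NFIA arrays and on 0 of 4 control arrays. PN_NFIA 1 and PN_NFIA 2 differed by 0.31 in log2, and PN_NFIA 1 lay 1.58 below the highest array, SN_NFIA 2. In order, SN_NFIA (-2.64 ± 0.59, SD, n = 2) lay above PN_NFIA (-3.96 ± 0.22), and both lay above the control groups, which have no measured order.

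Foxa2 and Foxa1, forkhead factors that open chromatin in the endoderm and ventral neural tube, were well above background on all 8 arrays. Foxa2 stood at 3.36 and 3.69 in PN_control, 3.58 and 4.16 in PN_NFIA, 3.12 and 3.48 in SN_control and 3.33 and 2.69 in SN_NFIA. Its whole range was 1.46 in log2, and the 4 groups overlapped in chain from PN_NFIA (mean 3.87 ± 0.41, SD, n = 2) to SN_NFIA (3.01 ± 0.45). Foxa1 stood at 2.58 and 2.87 in PN_control, 2.46 and 2.12 in PN_NFIA, 1.83 and 2.51 in SN_control and 1.80 and 1.12 in SN_NFIA. PN_control lay above all other groups and SN_NFIA below all other groups with no overlap, while PN_NFIA and SN_control overlapped. For both genes SN_NFIA 2 was the lowest array, and PN_NFIA 1 was not the highest, since it lay 0.58 below PN_NFIA 2 for Foxa2 and 0.41 below PN_control 2 for Foxa1.

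Dab2, the adaptor that takes megalin and its relatives into the cell, was well above background on all 8 arrays. Its level was 0.82 on PN_NFIA 1, -0.84 on PN_NFIA 2, -1.04 and -3.49 in PN_control, -0.97 and -0.85 in SN_control and 0.31 and -0.05 in SN_NFIA. PN_NFIA 1 was 3.15-fold PN_NFIA 2 and 1.42-fold the next highest array, SN_NFIA 1. PN_control 2 stood apart at the low end, and PN_control 1 lay close to PN_NFIA 2 and to both SN_control arrays.

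**Figure D1:**
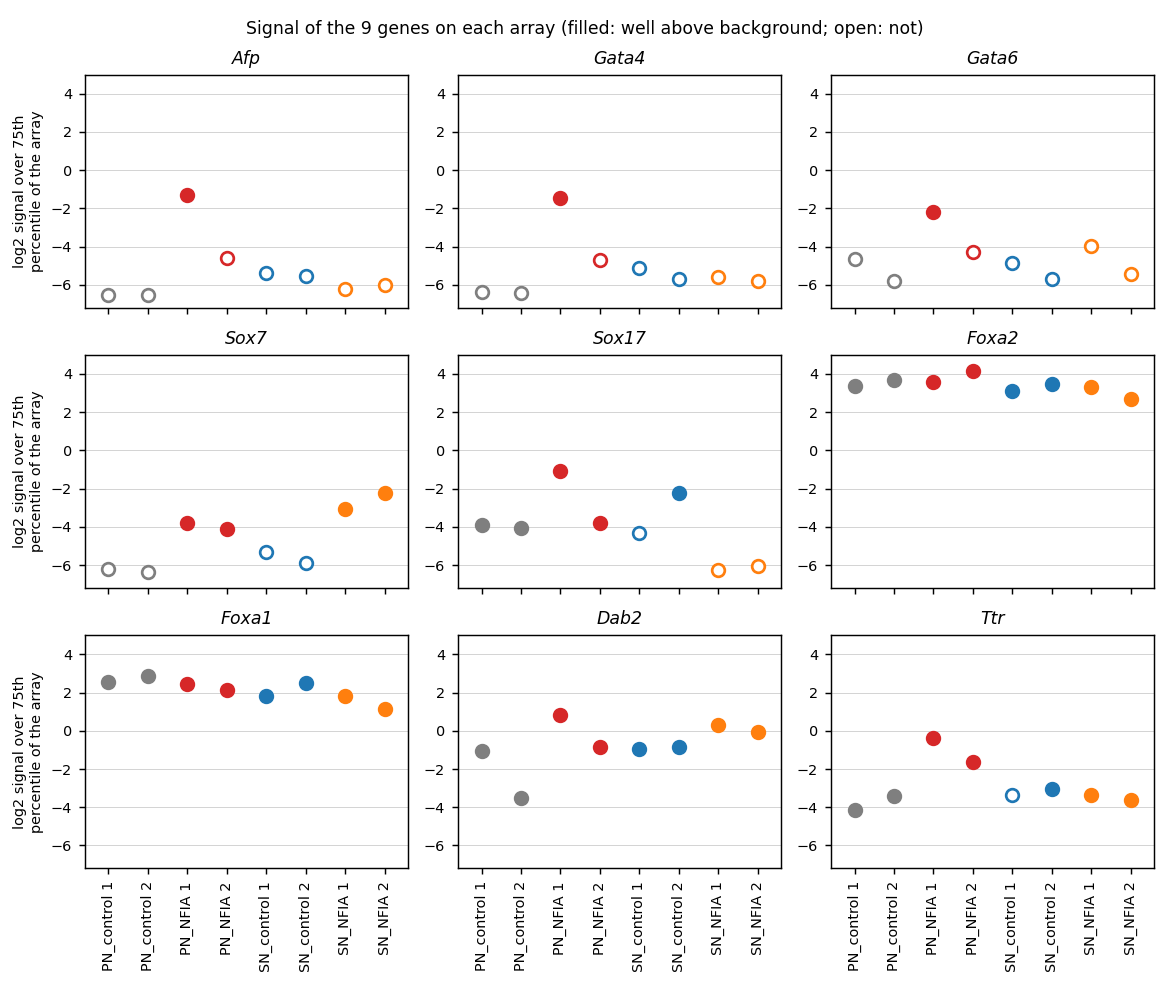
Each panel plots 1 gene, with the 8 arrays on the horizontal axis and log2 signal over the 75th percentile of the array on the vertical axis; a filled point was well above background and an open point was not, and colour marks the group. Afp, Gata4 and Gata6 have a single filled point, PN_NFIA 1, Sox7 is filled on the 4 NFIA arrays, and Foxa2 and Foxa1 are filled on all 8.

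All 9 genes were well above background on PN_NFIA 1, against 3 to 6 of them on each other array. The limit of detection differed by array. Spots well above background were most common on PN_NFIA 1 (56.4%) and least common on SN_control 1 (45.4%), the array with 3. The lowest level called well above background was -4.59 on PN_NFIA 1 and -3.27 on SN_control 1. PN_NFIA 1 had the highest level of 6 of the 9 and exceeded every other array by at least 1 in log2 for 5 of them, Afp, Gata4, Gata6, Ttr and Sox17. Over the 15452 genes those shares were 8.18% and 0.725%, which are background counts only, since the 9 genes were listed with this array in view. By the same measure PN_NFIA 1 was not the array with the most genes of its own, with 112 genes at least 1 above all others, against 666 on SN_control 2, 399 on SN_NFIA 2, 375 on SN_NFIA 1, 157 on SN_control 1, 48 on PN_control 1, 16 on PN_NFIA 2 and 13 on PN_control 2. None of the 9 genes was at least 1 above all others on any of those 7. Over all genes PN_NFIA 1 correlated best with PN_NFIA 2 (r = 0.982 across genes, which are not independent). Ddx3y, Eif2s3y and Uty, genes of the Y chromosome chosen after their values were seen, lay on PN_NFIA 1 between PN_NFIA 2 and both PN_control arrays. Ddx3y stood at 0.01 and 0.22 in PN_control, -1.03 on PN_NFIA 1, -2.89 on PN_NFIA 2, 0.03 and 0.16 in SN_control and -4.53 and -4.51 in SN_NFIA. The part of cell makeup in the values of PN_NFIA 1 was not tested, and in sorted bulk RNA more cells of a type and more RNA per cell cannot be told apart.

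By group mean, the NFIA cells of primary neurospheres lay above the control cells for 8 of the 9 genes. These differences chose the genes, so they are given with no test. They were 2.78 for Ttr, 2.26 for Dab2 and 1.54 for Sox17. Sox7, not well above background in PN_control, was at least 1.58-fold higher in PN_NFIA. Afp, Gata4 and Gata6 were not well above background in PN_control or on PN_NFIA 2, so their group means give no bound. For these genes PN_NFIA 1 alone was at least 3.96-fold, 3.51-fold and 2.11-fold each other array. Foxa2 differed by 0.34 and Foxa1 by -0.43. The 2 groups did not overlap, with NFIA higher, for 7 of the 9 genes (21.7% of 15452 genes), of which Afp, Gata4 and Gata6 have no measured order between PN_NFIA 2 and PN_control. The mean of PN_NFIA hides the gap between its arrays, whose SD was 2.35 for Afp, 2.28 for Gata4, 1.92 for Sox17 and 1.49 for Gata6, against 0.22 for Sox7. Without PN_NFIA 1 the differences were 2.15 for Ttr, 1.43 for Dab2, 0.18 for Sox17 and 0.63 for Foxa2, while Afp, Gata4 and Gata6 had no array well above background in either primary group. Dab2 also rests on the control arrays, with 1.03 without PN_control 2 and 3.49 without PN_control 1. By signal value, normexp brought Afp from 3.60 to 1.18, Gata4 from 3.31 to 0.999, Gata6 from 1.96 to 0.55 and Sox7 from 2.31 to 0.41. It gave 1.56 for Ttr, 1.58 for Dab2 and 0.78 for Sox17, while Foxa2 (0.30) and Foxa1 (-0.43) changed little. Grouped by source name, where PN_NFIA 1 is the sole primary WT array, the differences of Afp, Gata4, Gata6, Sox7, Sox17, Ttr and Dab2 turned negative.

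The comparison of SN_NFIA with SN_control asks whether NFIA goes with these genes after passage, and it is tested because its difference takes no value from the primary arrays that chose the genes. The primary arrays do enter the estimate of spread, which the 4 groups share. Sox7 rose in NFIA cells and was the sole called member. Its difference was 2.96 ± 0.36 (SE, 2 arrays a group, 95% interval 2.11 to 3.81, limma adjusted p = 0.0275), and since it was not well above background in SN_control the fold is at least 2.26. It entered the test through the groups in which it is high, and its rise in primary NFIA cells was in view when the genes were listed. Over all 13790 genes tested, 0.486% rose and 0.45% fell at that threshold of 0.05, which is 67 and 62 genes, with 2081 at an unadjusted p under 0.05.

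The call of Sox7 rests on how the arrays are used. The adjusted p was 0.0619 without the filter on dim probes, 0.145 with the 2 secondary groups fitted alone and 0.343 with normexp background correction, which brought the difference to 0.75. Without PN_control 1 or PN_control 2 it was 0.0701, without SN_NFIA 1 0.0576 and without SN_NFIA 2 0.0967. With PN_NFIA 1 and SN_NFIA 2, the arrays with a WT source name, both left out it was 0.164. Grouped by source name, it differed by -2.53 (adjusted p = 0.707), and with the attached scanner files the gene was not among those tested.

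Sox17 had a negative fitted difference that missed the threshold over all genes, -2.86 ± 0.95 (95% interval -5.10 to -0.63, limma adjusted p = 0.219). SN_control 2 was the sole secondary array with Sox17 well above background. SN_control 1 has no measured level, so the group means give no bound on the fold. Without SN_control 2 no secondary array gives a measured level. The fitted value turned to 1.76 when arrays were grouped by source name and to 2.26 with the attached scanner files.

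The other 4 tested genes had intervals that include 0. Dab2 differed by 1.04 (interval -0.91 to 2.99, limma adjusted p = 0.621) with both SN_NFIA arrays above both SN_control arrays. Foxa1 differed by -0.71 (-1.54 to 0.12, adjusted p = 0.409), Foxa2 by -0.29 (-1.09 to 0.52, adjusted p = 0.755) and Ttr by -0.29 (-1.38 to 0.79, adjusted p = 0.823). Afp, Gata4 and Gata6 did not pass the filter on dim probes and have no measured level on any secondary array. The secondary groups did not overlap for 2 of the 9 genes with NFIA higher, Sox7 and Dab2 (18.3% of all genes), and for 3 with NFIA lower, Sox17, Foxa1 and Afp (21.2%), of which Afp has no measured order and Sox17 has one only for SN_control 2. The median difference of the 9 was -0.29, against -0.02 over all genes tested.

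**Figure D2:**
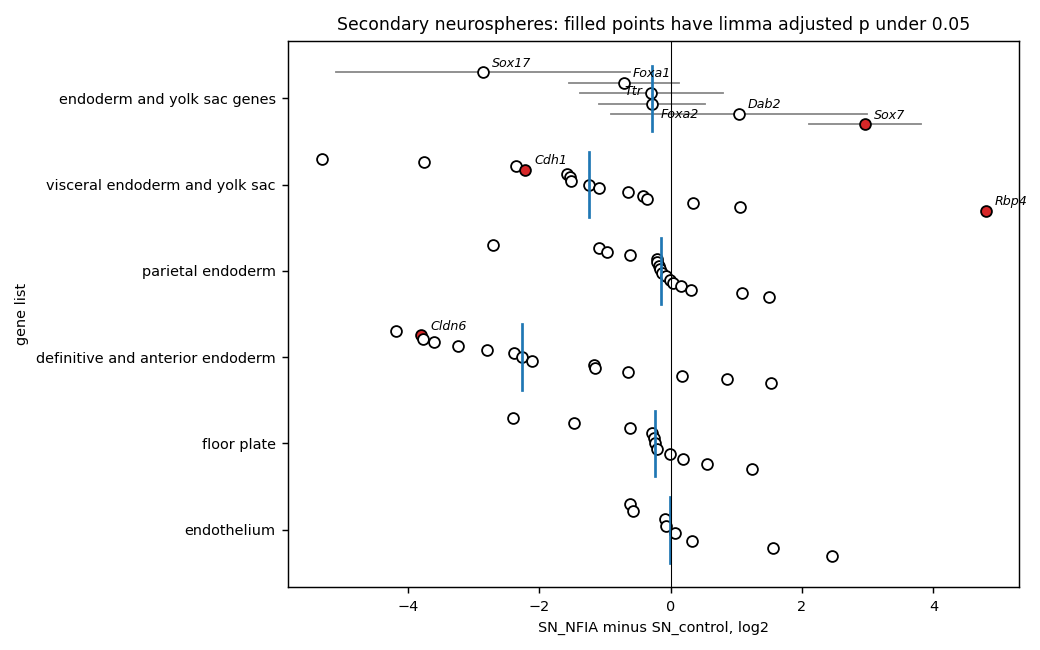
The horizontal axis is the log2 difference of SN_NFIA minus SN_control, and each point is 1 tested gene of the list named on the vertical axis; filled points have a limma adjusted p under 0.05, grey lines are 95% intervals of the 6 tested endoderm and yolk sac genes, and blue bars are medians. Sox7 is filled at 2.96 on the right while Sox17 lies open at -2.86 on the left, and most points of the definitive and anterior endoderm list lie left of 0.

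Passage was compared in control cells, SN_control against PN_control, which asks what changes from day 6 to day 12 in the arrays titled control. These cells are not free of Nfia RNA, since both Nfia probes were well above background on all 8 arrays. This comparison shares the PN_control arrays with the one that chose the genes. Of the 9 genes, 6 were tested in limma and 0 were called. Of all genes tested, 0.725% rose and 0.138% fell (100 and 19 genes, or 79 and 29 with quantile normalization). Of the 6 members, 0 had an unadjusted p under 0.05. Afp, Gata4 and Gata6 did not pass the filter on dim probes and were not tested. Sox7 was tested though it was not well above background in either control group. Dab2 differed by 1.36 ± 0.82 (limma adjusted p = 0.521), Sox17 by 0.70 ± 0.95 (0.786), Ttr by 0.59 ± 0.46 (0.631), Foxa1 by -0.55 ± 0.35 (0.543) and Foxa2 by -0.22 ± 0.34 (0.812). Dab2 rests on which primary control array is used, with 0.13 without PN_control 2 and 2.58 without PN_control 1. Sox17 and Ttr were well above background on SN_control 2 alone of the SN_control arrays. The interval for Dab2 ran from -0.59 to 3.30 and that for Sox17 from -1.53 to 2.94, so these data allow differences of either sign. The groups did not overlap, with the secondary one higher, for 5 of the 9 genes (20.2% of all genes), of which Dab2 was measured on all 4 arrays and Ttr on 3, while Sox7, Afp and Gata4 have no measured order. Like those 3, Gata6 was not well above background in either control group. Foxa1 went the other way with no overlap, at 1.83 and 2.51 in SN_control against 2.58 and 2.87 in PN_control. The share of all genes in that direction was not counted.

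In NFIA cells the passage difference uses the arrays that chose the genes and is a description. Sox17 was well above background on both PN_NFIA arrays and on neither SN_NFIA array, so it was at least 3.31-fold lower in SN_NFIA by group mean. Ttr differed by -2.49. Foxa2 and Foxa1 differed by -0.86 and -0.83, Sox7 by 1.32 and Dab2 by 0.14. The groups did not overlap, with the secondary one lower, for 6 of the 9 genes (29.2% of all genes). Afp and Gata4 are among these 6, with no measured level on PN_NFIA 2. For Sox7 the secondary group was the higher one with no overlap, and how many of all genes go that way was not counted. Afp and Gata4 were well above background on 1 of 2 arrays of PN_NFIA and on neither of SN_NFIA. For these genes the measured gap lies between PN_NFIA 1 and the other arrays.

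Other genes of these tissues were read from lists that had also been chosen with earlier results known. Of 30 visceral endoderm and yolk sac genes besides the 9, 21 were well above background on some array, 19 of them on PN_NFIA 1 and 12 to 16 on each other array. PN_NFIA 1 was the highest array for 13 of the 21 and at least 1 above all others for 6. Hnf4a, the nuclear receptor of visceral endoderm and liver, was well above background on PN_NFIA 1 alone, at -2.04, which is at least 2.36-fold each other array. Apob, which encodes the protein of lipoprotein particles, was likewise at least 1.18-fold, and Ihh, the hedgehog ligand made by visceral endoderm, was at least 4.60-fold. Other defining genes of the tissue were well above background on 0 of 8 arrays, among them Alb, Apoa1, Apoa4, Fgb, Fgg and Foxa3. Spink3 and Apoc2, also on the list, had no probe matched to their symbol and were not measured.

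For the definitive and anterior endoderm list, PN_NFIA 1 was highest for 10 of 17 genes and at least 1 above all others for 6. The keratin gene Krt8 was at least 3.41-fold each other array, the keratin gene Krt18 was 2.41-fold the next highest, and Hhex, a homeobox factor of anterior endoderm and liver, was at least 2.33-fold each other array. Of the 16 parietal endoderm genes, PN_NFIA 1 was highest for 7 and at least 1 above all others for 2, Srgn, a proteoglycan gene (at least 5.96-fold), and the thrombomodulin gene Thbd (at least 2.22-fold). The laminin gene Lamb1 was 1.81-fold the next highest array. All of these genes were read on the array in view when the lists were made.

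Markers of other cell types were read in the same way. Endothelial genes stood high on PN_NFIA 1 by their mean, which was -0.25 against -2.77 to -1.39 on the other arrays. On it 9 of 9 were well above background, against 4 to 8 on the others. PN_NFIA 1 was highest for 5 of the 9 and at least 1 above all others for 3. Emcn, Sox18 and Pecam1 were higher on another array. The vascular cadherin gene Cdh5 was well above background on PN_NFIA 1 alone (at least 1.65-fold), the VEGF receptor gene Flt1 was 3.88-fold the next highest array and the adhesion gene Esam at least 3.39-fold each other array, while Tek, Tie1, Flt4 and Erg were well above background on none. Of 10 pluripotency genes PN_NFIA 1 was highest for 8 and at least 1 above all others for 0. Of 4 primitive erythroid genes it was highest for 1, and Gata1, Alas2 and Hba-x were not well above background anywhere; the globin genes that were have close paralogues. Of 8 cardiac genes it was highest for 2 and at least 1 above for 1, Hand1. Hand1 was well above background on PN_NFIA 1 alone and is too dim there to give a bound over each other array. For 11 floor plate genes, 12 choroid plexus genes and 11 genes of signals that act on endoderm it was highest for 1, 1 and 2 and at least 1 above for 0 in each. It was highest for 0 of 10 neural progenitor genes, whose mean level on it was 3.73, inside the range of 3.06 to 4.14 on the other arrays. The part of endothelial cells in the levels of Sox7 and Sox17, which endothelium expresses, was not tested.

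**Figure D3:**
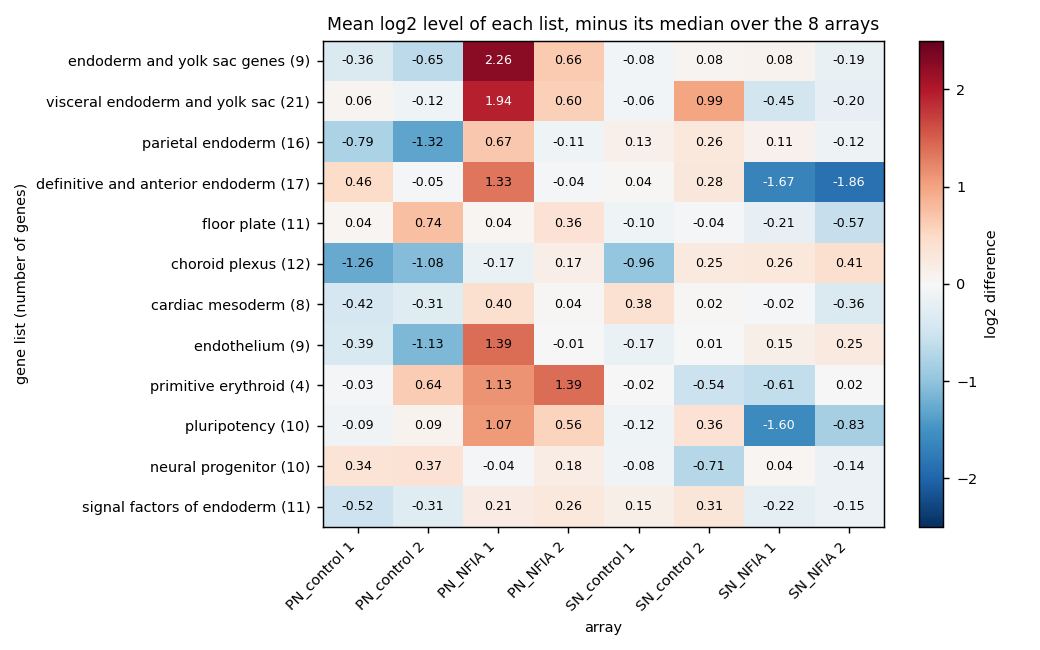
Rows are gene lists with the number of genes well above background on at least 1 array, columns are the 8 arrays, and each cell is the mean log2 level of the list minus the median of that mean over the 8 arrays, red above and blue below. PN_NFIA 1 is the reddest column for the endoderm and yolk sac genes, the visceral, parietal and definitive endoderm lists, endothelium and pluripotency. For cardiac mesoderm it is nearly level with SN_control 1 (mean levels of -2.35 and -2.37). The definitive endoderm list is bluest on the SN_NFIA arrays.

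In the secondary comparison the definitive and anterior endoderm genes leaned to lower levels in NFIA cells, with a median of -2.26 and 12 of 15 tested genes negative, against -0.02 over all genes. Of these, 1 fell and 0 rose at the threshold. The 3 positive differences were 1.53 for Cxcr4 (limma adjusted p = 0.0721), 0.85 for Sox9 (0.209) and 0.17 for Prox1 (0.930). Cldn6, a tight junction gene of embryonic epithelia, stood at -2.23 and -1.95 in SN_control and was not well above background in SN_NFIA, at least 4.22-fold lower (limma adjusted p = 0.0286). The nodal antagonist gene Lefty1, not well above background in SN_NFIA, was at least 5.25-fold lower (limma adjusted p = 0.0621). The T-box gene Eomes differed by -2.11 ± 0.40 (limma adjusted p = 0.0657), and Lefty1 and Eomes were short of the threshold. Cldn6 and Lefty1 entered the test through groups in which they are high. Of the 17 genes of this list, 13 and 15 were well above background on the SN_control arrays. On the SN_NFIA arrays 8 and 6 were, so some fitted differences take values that are not measured levels. Of 15 visceral endoderm and yolk sac genes tested, with a median of -1.25, the retinol carrier gene Rbp4 rose by 4.80 ± 0.66 (adjusted p = 0.0364) and Cdh1, the epithelial cadherin gene, fell by 2.21 on the log2 scale (adjusted p = 0.0412). Fgf4, a ligand that acts on primitive endoderm and is itself made by pluripotent cells, fell by 2.30 on the log2 scale (adjusted p = 0.0346). Pluripotency genes leaned the same way, with a median of -1.44 and 8 of 10 negative. Among the other tested genes of these lists, 0 of 16 parietal endoderm, 0 of 11 floor plate, 0 of 11 choroid plexus, 0 of 5 cardiac, 0 of 8 endothelial, 0 of 3 erythroid and 0 of 10 neural progenitor genes were called in limma, with 3, 2, 4, 3, 1, 0 and 3 at an unadjusted p under 0.05 in that order. Over all genes tested, 0 were called with groups from the source names, with the attached files, with the 2 groups alone or without both arrays of WT source name, so these calls depend on those choices.

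Between passages in control cells, 2 of 16 parietal endoderm genes rose, which are the basement membrane genes Nid1 (3.41 ± 0.45, limma adjusted p = 0.0278) and Col4a1 (2.86 ± 0.46, adjusted p = 0.05 after rounding, just under the threshold), the latter chosen after its values were seen. The median of this list was 1.27, with 13 of 16 positive, against -0.12 over all genes. Nid1 stood at -0.28 and -0.88 in PN_control, 2.85 and 2.80 in PN_NFIA, 2.16 and 3.49 in SN_control and 3.98 and 3.85 in SN_NFIA, so PN_control was the low group. Visceral and definitive endoderm genes had medians of 0.26 and 0.18 with 0 called in limma, and 3 and 2 of 15 each at an unadjusted p under 0.05, where all genes gave 1855 of 13790. Of the neural progenitor markers 9 of 10 were negative, with a median of -0.47, and Pax6, a transcription factor gene of neural progenitors also chosen after its values were seen, fell, with a difference of -2.74 (limma adjusted p = 0.0175). Their part in the values of the parietal list was not tested. Basement membrane genes are expressed by many cell types besides parietal endoderm.

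The genes whose pattern was most like the mean of Afp and Gata4 over the 8 arrays, among 2713 genes with an SD of at least 1, were Ccm2l (r = 0.986), Apob (0.970), Ugt2b34 (0.966), Gkn2 (0.962), F2 (0.959), B4galnt2 (0.955), Habp2 (0.948), Tinagl1 (0.943), Hnf4a (0.931) and Dpp4 (0.922). These correlations are over 8 arrays that include PN_NFIA 1, and 8 of the 10 genes were well above background on that array alone, so the likeness rests on that array. Among them are the prothrombin gene F2, the glucuronosyltransferase gene Ugt2b34, the gastrokine gene Gkn2 and the peptidase gene Dpp4. Ccm2l stood at -1.93 on PN_NFIA 1, at least 2.54-fold each other array, and Gkn2 at -0.04, at least 6.10-fold.

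The 10 genes outside the list with the widest gap between PN_NFIA 1 and the next array were Habp2, Pcdh12, Cd93, Ctla2a, Icam2, Nepn, Ctla2b, B4galnt2, Pga5 and Plac8, of which Habp2 and B4galnt2 were also among the most alike. Habp2, a plasma protease gene, was at least 4.70-fold each other array and the protocadherin gene Pcdh12 at least 6.19-fold, and both were well above background on PN_NFIA 1 alone. Cd93, a receptor gene of endothelial and myeloid cells, was at least 9.42-fold and Icam2, an adhesion gene of endothelium, at least 8.60-fold. The protease inhibitor genes Ctla2a and Ctla2b are close paralogues whose probes may share signal, and their bounds were 9.0-fold and 5.78-fold. Nepn, Pga5 and Plac8 had bounds of 7.73-fold, 7.56-fold and 7.13-fold. Cd93 stood at 1.1 on PN_NFIA 1 and next at -2.13 on PN_control 1, and Icam2 at 1.18 and next at -1.93 on PN_control 1, so for both genes the second array was a control array and not PN_NFIA 2.

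**Figure D4:**
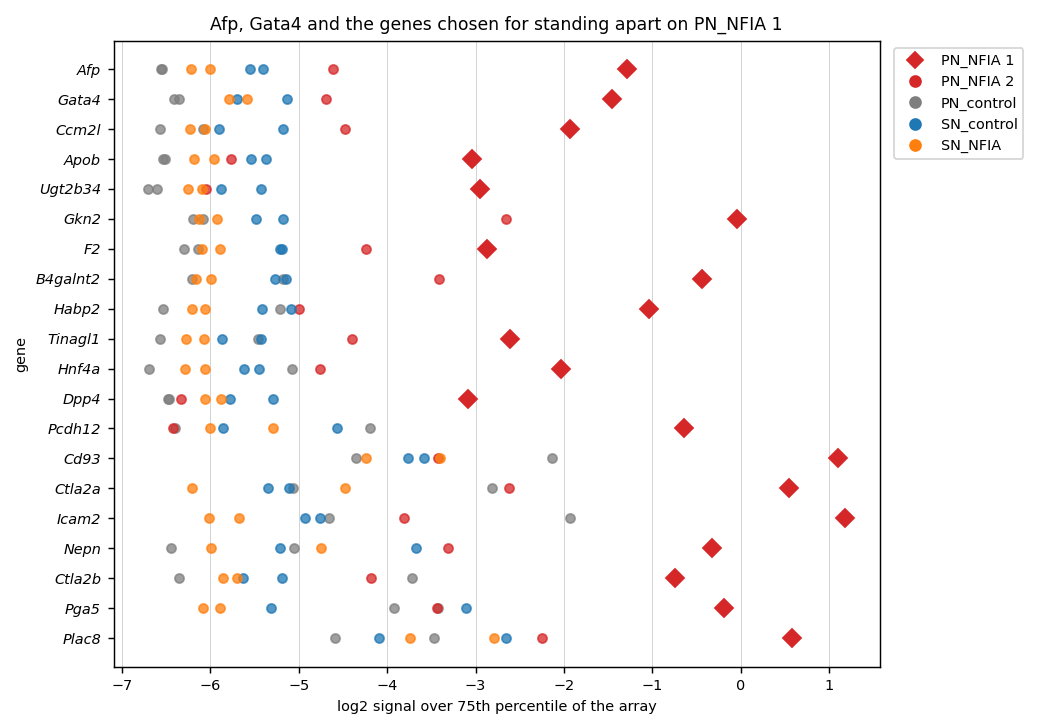
Each row is 1 gene, Afp and Gata4 first, then the 10 most like them and the further genes with the widest gap, and the horizontal axis is log2 signal over the 75th percentile of the array; the red diamond is PN_NFIA 1, the red circle PN_NFIA 2 and other colours the other groups. The diamond lies right of all circles in every row, which is how the rows were chosen, and for Cd93 and Icam2 the nearest circle is grey, a PN_control array.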

How the data were processed

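RNA of 8 samples was measured on 1-colour Agilent arrays, 1 per sample. Per the file headers, the deposited intensity of each spot is the processed signal of Feature Extraction 10.5.1.1, after background subtraction and detrending (version 10.7.3.1 per the submitters' processing notes). The value table deposited by the authors holds log2 values with every probe's median set to about 0 (at most 0.000245 in size). Its columns assigned the arrays to samples, each through the scanner file it matched best. Spots well above background made up 45.4% to 56.4% of an array, and 0 were saturated. The number of arrays limits the precision.

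Log2 signals were set against the 75th percentile of their array. The array's transcript accession gave 26056 of 55681 probes a symbol. A probe had to be well above background throughout 1 or more groups, 126 with outlier flags were left out, and the brightest probe of a gene was used. The 13790 genes were tested in limma 3.58.1 (R 4.3.3) with 4 group means and Benjamini-Hochberg adjustment over all genes, and the fit was tested on simulated data. Alternatives were the attached files, groups from the source names, normexp (offset 50) on the median signal in place of the planned mean signal, quantile normalization, no filter, mean of probes, the value table, 2 groups alone, the replicate number as a block, and leaving out arrays. The members and lists were chosen with earlier results of these data known. Genes named besides the 9 are, per list, the 3 with the smallest p in secondary neurospheres and the 3 with the widest gap of PN_NFIA 1 over the other arrays, plus the 10 most like Afp and Gata4 and the 10 with the widest gap overall.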

Additional observations from a re-analysis of the deposited data

Results flagged for a closer look

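By signal value, Afp and Sox17 had NFIA-minus-control differences of opposite sign in the 2 passages, and the difference between passages was not tested. For Afp the value was 3.60 in primary and -0.64 in secondary neurospheres, but the probe was well above background on PN_NFIA 1 alone, so the secondary sign is not measured. For Sox17 it was 1.54 in primary neurospheres, with 0.18 without PN_NFIA 1, and -2.86 in secondary ones, where SN_control 2 was the sole array well above background.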

How the results depend on the processing

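In secondary neurospheres the 1 called gene of the 9, Sox7, became 0 with groups from the source names, the attached files, normexp, no filter on dim probes, the 2 groups alone, and without both arrays of WT source name (this last chosen after seeing the data), and 0 to 1 leaving out single arrays. Sox7 stayed past the test in 8 of the 17 alternatives in which it was tested, which leave out the attached files. All genes called there were 129 and became 0 with source names, attached files, the 2 groups alone and without both WT arrays, 203 with normexp, 22 with no filter and 7 to 458 leaving out single arrays. For passage in control cells the 119 called genes became 0 with source names, attached files, the 2 groups alone and without both WT arrays, 52 with no filter and 8 to 444 leaving out single arrays, while 0 of the 9 were called under any alternative. The 7 genes with NFIA higher and no overlap in primary neurospheres became 3 with the attached files and 0 with the source names, and the 6 lower by passage in NFIA cells became 0 with either. By source name the WT arm of a passage is a single array, and the primary differences turned to -4.62 for Afp, -4.36 for Gata4, -2.71 for Gata6, -2.84 for Sox17, -2.69 for Ttr, -2.61 for Dab2 and -1.75 for Sox7, with 0.06 for Foxa1, and the passage differences in NFIA cells to 0.18 for Afp, 0.35 for Gata4 and 0.07 for Gata6. With the attached files the passage differences in NFIA cells turned to 1.74 for Afp, 1.90 for Gata4, 1.5 for Gata6, 0.30 for Sox17 and 0.48 for Ttr, and the primary differences to -0.14 for Gata6 and -0.30 for Sox7.

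In secondary neurospheres the source names turned Dab2 to -0.45, Foxa1 to 0.92, Foxa2 to 0.62, Sox17 to 1.76, Sox7 to -2.53 and Ttr to 0.40, the attached files turned Foxa1 to 0.30, Foxa2 to 0.32, Sox17 to 2.26 and Ttr to 2.04, and Foxa2 ranged from -0.61 to 0.032 leaving out single arrays, with 0.032 without SN_NFIA 2, also when both WT arrays were left out. For passage in control cells the source names, which then compare 1 array with 1 array, turned Dab2 to -0.87, Sox17 to -4.94 and Ttr to -3.28, the attached files Ttr to -0.53, quantile normalization Sox7 to -0.17, and Sox17 was -0.35 without SN_control 2. The cause was not tested.

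Equal replicate numbers share only a number by the labels. Deviations of equally numbered arrays correlated at 0.445 between PN_control and PN_NFIA, 0.484 between SN_control and SN_NFIA and -0.188 between PN_control and SN_control. With the replicate block 648 genes were called in secondary neurospheres, Sox7 among them (limma adjusted p = 0.035). For passage in control cells 152 were called, with 0 of the 6 tested members. Crossing the numbers of the control groups gave 110. The counts of groups without overlap come from no fit and have no blocked value. Probes not well above background give bounds, which limits Afp, Gata4, Gata6, Sox7 and Sox17.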
